A study of Homo sapiens and Mus musculus with 36 samples.

Results

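The genes described here are 4 alpha-arrestins (TXNIP, ARRDC4, ARRDC3 and ARRDC2) and 3 genes of glucose-sensing Mondo transcription factors and their partner (MLXIP, MLXIPL and MLX). They were taken by symbol from all 13 comparisons. All 7 were listed among the 26868 human gene symbols, and 6 of them among the 16699 mouse symbols, where Arrdc4 was not listed. TXNIP and ARRDC4 were selected on their log2 fold changes under the compound MS7126, among the largest increases in both liver lines. Their MS7126 values are therefore given as a description, with no test made here, and so are those of the other 5 genes. Calls printed for the 7 genes under MS7126 are the authors' own, and nothing is read from them.

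TXNIP binds thioredoxin, restrains its reducing activity and lowers glucose uptake by promoting removal of glucose transporters from the cell surface. ARRDC4 is its closest relative in sequence and also lowers glucose uptake, whereas ARRDC3 and ARRDC2 act as adaptors between membrane receptors and ubiquitin ligases. MLXIP (the gene of MondoA) and MLXIPL (the gene of ChREBP, abundant in liver) sense glucose phosphates. Each pairs with MLX to bind paired E boxes in promoters, and TXNIP and ARRDC4 are known targets of these dimers.

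The series comprised 36 RNA-seq libraries in 18 groups of 2 from HepG2 and Huh7, human liver cancer lines, and WEHI-231, a mouse B-lymphoma line. HepG2 cells, in RPMI1640, received 5 uM MS7126, C24, MS7126N1, MS7126N2 or DMSO for 48 h. Huh7 cells, in DMEM, were given DMSO or 5 uM MS7126, for 24 h by the samples' own label. The Huh7 time is uncertain, because text attached to the WEHI-231 samples states 48 h. WEHI-231 cells, in DMEM with 2-mercaptoethanol, received 1 uM MS8815, EPZ-6438, MS8815N or DMSO for 16 h. By the series' design, MS7126 and MS8815 are PROTACs, molecules made to have EZH2 degraded. C24 and EPZ-6438 are their matched enzymatic inhibitors, and MS7126N1, MS7126N2 and MS8815N are analogs without PROTAC activity. EZH2 is the histone methyltransferase of the Polycomb repressive complex PRC2. The other groups were infected with pLKO.1-puro lentivirus and selected with puromycin, in HepG2 with hairpins labelled shEZH2 or shSREBP2 #664, #665 and #667, and in Huh7 with shEZH2. SREBP2 (gene SREBF2) is the sterol-regulated activator of cholesterol genes. The hairpin control is called both an empty vector and a scramble in the labels. All HepG2 hairpins were compared with the same 2 control libraries, all HepG2 compounds with the same 2 DMSO libraries, and likewise in WEHI-231.

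Values per library were at hand for Huh7 shEZH2, with totals of 10106193 to 11954322 estimated counts, and the other 12 comparisons rest on the authors' own fold changes. Whether both libraries of a group stem from separate cultures is not said in the labels, and p-values thus cover the spread between those libraries, which may be technical. All 8 hepatocyte markers were listed in HepG2 and in Huh7, and all 7 B cell markers in WEHI-231. Summed hepatocyte markers went from 13412 to 7151 CPM (counts scaled to a common library total) with MS7126 in HepG2, from 30382 to 18514 CPM with MS7126 in Huh7 and from 30151 to 23318 CPM with shEZH2 in Huh7, with all 8 listed in each. From 27898 CPM in the shared control of the HepG2 hairpins, the sum rose to 47157 CPM with #664 and 41777 CPM with #667. It rose to 42167 CPM in the libraries labelled shEZH2 and fell to 25711 CPM with #665. Fibroblast markers, 2 of 4 listed (COL1A1 and PDGFRB), went there from 24.7 CPM to 6.48, 19.6, 9.36 and 16.1 CPM in the same order. Each library is of a single cell line, so these sums are RNA levels in that line and show no mix of cell types. In bulk libraries fewer expressing cells and less RNA per cell cannot be told apart. The part of these shifts in the results for the 7 genes was not tested. By edgeR, EZH2 fell to 15.9% of control in Huh7 shEZH2 (adjusted p = 3.03e-13; log2 fold change -2.65, SE 0.08). HepG2 cells labelled shEZH2 had more EZH2 than their control by the authors' deposited table (0.90, SE 0.38, adjusted p = 0.0337), against the label, with an SE 2.04 log2 units over the trend of SE with mean. SREBF2 stood at -1.58 (SE 0.06) for #664, -1.08 (SE 0.12) for #665 and -2.35 (SE 0.42) for #667 in the authors' deposited tables, below control in each. The #667 SE was 1.91 log2 units over that trend, and for the libraries labelled shEZH2 the authors' deposited table had SREBF2 at 0.43 (SE 0.35), an SE 2.64 log2 units over it. Whether libraries were exchanged between the #667 and shEZH2 labels was not tested, since these tables give no values per library. The SEs of the 7 genes in the HepG2 hairpin comparisons lay between 0.074 below and 0.25 above the trend.

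By the GENCODE annotation, TXNIP lies on chromosome 1 (GRCh38, 145992435 to 145996600, minus strand) and ARRDC4 on chromosome 15 (97960698 to 97973838, plus strand). The bases before their start sites are shown because both genes were selected on their increases under MS7126 and are known Mondo targets. Both come from RefSeq (GRCh38.p14), read 5′ to 3′ along the gene, with searched motifs in capitals. The TXNIP window is chr1:145996580-145996829 on the minus strand and the ARRDC4 window chr15:97960453-97960702 on the plus strand. Both windows are placed by RefSeq start sites, so the ends nearest the genes overlap the GENCODE spans.
TXNIP: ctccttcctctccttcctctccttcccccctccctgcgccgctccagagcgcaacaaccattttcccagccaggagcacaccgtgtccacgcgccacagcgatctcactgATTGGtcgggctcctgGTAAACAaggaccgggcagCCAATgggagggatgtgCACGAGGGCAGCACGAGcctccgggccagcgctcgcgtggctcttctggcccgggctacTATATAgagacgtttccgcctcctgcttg
ARRDC4: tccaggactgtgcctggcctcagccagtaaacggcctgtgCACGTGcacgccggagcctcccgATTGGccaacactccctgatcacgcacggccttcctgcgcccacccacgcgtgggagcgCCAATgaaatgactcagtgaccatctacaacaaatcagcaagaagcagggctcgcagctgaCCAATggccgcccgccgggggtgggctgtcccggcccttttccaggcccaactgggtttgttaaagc

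In TXNIP the capitals mark, in order, a reverse CCAAT box (ATTGG) starting 140 bases before the start site, a forkhead site (GTAAACA) at 124, a CCAAT box at 105, a spaced pair of E box-like motifs at 88 and a TATA box (TATATA) at 29. In ARRDC4 they mark an E box (CACGTG) at 210, a reverse CCAAT box at 187 and CCAAT boxes at 128 and 67. All motifs were searched on both strands in 35116 RefSeq promoter windows of 250 bases before and 50 after the start. The spaced pair, 2 copies of CACGNG with 5 bases between them, whose letters were chosen after the TXNIP sequence was read, was found in 20 windows (0.057%), the full E box in 7.26%, CCAAT in 34.6%, TATATA in 3.99% and GTAAACA in 3.42%. The plot of motif positions shows the windows of all 7 genes, among which MLX also held a full E box, 50 bases before its start. TXNIP, ARRDC3 and ARRDC2 have 2 windows each, and all TXNIP matches lay in the window printed. A carbohydrate response element written as CANGNG and CNCNTG with 5 bases between them (0.564% of windows) had no match in windows of the 7 genes. That pattern asks for T where the second copy in the TXNIP pair (CACGAG) has A, so it could not match the pair. The missing match thus does not show that TXNIP lacks such an element. The ATF4 composite site (TGATGNAAN, 3.61%) and the sterol element (TCACNCCAC, 1.13%) also had no match in these windows. These are matches of letters within the windows and no measurement of binding.

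**Figure D1:**
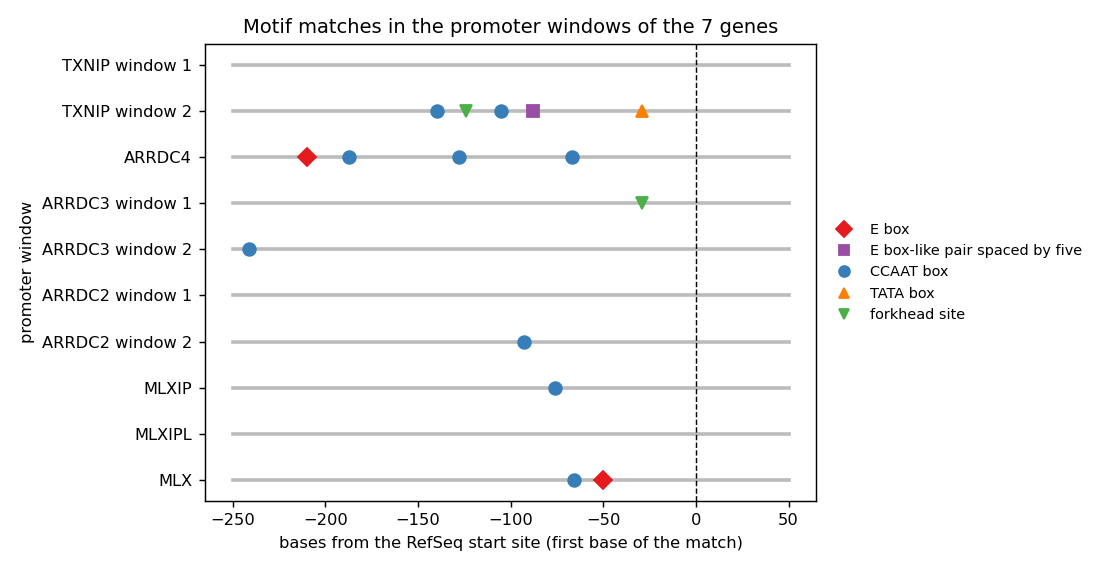
Motif matches in the RefSeq promoter windows of the 7 genes, by the distance in bases of the first base of the match from the start site, with 1 row per window and 1 symbol per motif. The second TXNIP window holds 5 matches and the ARRDC4 window 4, while 1 TXNIP window, 1 ARRDC2 window and the MLXIPL window hold none.

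The 7 genes started from different levels. Levels are given in CPM, rebuilt from the mean and fold change in the authors' deposited tables, and between genes only per kb of merged exons. Per kb, in HepG2 with DMSO, MLXIPL (14.8) and MLX (11.1 CPM per kb) were highest, TXNIP (5.06) and MLXIP (4.42) followed, and ARRDC3 (1.53), ARRDC2 (1.48) and ARRDC4 (0.498) were lowest. In Huh7 with DMSO the order of levels per kb was MLX (17.3), ARRDC3 (10.8), MLXIP (4.24), MLXIPL (2.49), TXNIP (1.06), ARRDC2 (0.68) and ARRDC4 (0.0572 CPM per kb). MLXIPL thus led the genes in HepG2 and not in Huh7, where MLX and ARRDC3 were above it. Line and medium (RPMI1640 for HepG2, DMEM for Huh7) cannot be told apart here. The tables of the lines were normalised separately and give no spread between libraries for these levels, so whether neighbours in either order differ was not tested. The same holds between the HepG2 control groups, in which TXNIP stood at 16.3 CPM with DMSO and 33.8 CPM with the hairpin control, and MLXIPL at 52.8 and 135 CPM. In WEHI-231 with DMSO, Txnip stood at 35.1 CPM and Mlxipl, at 0.0903 CPM, close to 0.

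**Figure D2:**
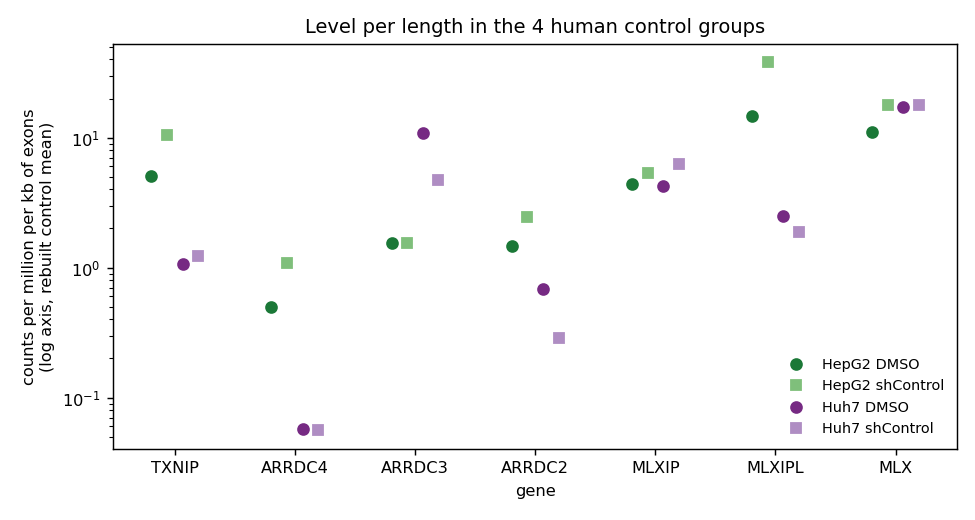
Level of each of the 7 genes per kb of merged exons (CPM per kb, log axis) in the HepG2 and Huh7 control groups, each point a group mean rebuilt from the deposited tables and given with no spread. MLXIPL is highest in both HepG2 groups (14.8 and 37.9) and lower in Huh7 (2.49 and 1.88), and ARRDC4 is lowest in all groups.

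With MS7126, TXNIP and ARRDC4 were far above DMSO in both liver lines, and the other 5 genes were nearer to it. In HepG2, TXNIP went from 16.3 to 70.5 CPM, 3.89-fold (log2 fold change 1.96, SE 0.27) in the authors' deposited table. ARRDC4 went from 2.03 to 27.6 CPM there, 3.61 (SE 0.35) or 12.2-fold by the authors' deposited table. By log2 fold change ARRDC4 ranked 5 and TXNIP 68 of the 9631 genes whose mean reached 100 normalized counts. In Huh7, which starts from less of both, TXNIP went from 3.42 to 66.7 CPM, 4.21 (SE 0.21) or 18.5-fold in the authors' deposited table. ARRDC4 went from 0.233 to 9.64 CPM, 5.29 (SE 0.71) or 39.3-fold in the authors' deposited table for Huh7. They ranked 6 and 3 among 11004 genes. TXNIP in Huh7 thus started lower than in HepG2 and was at 66.7 CPM under MS7126, beside 70.5 CPM in HepG2. The times differ by the samples' own labels, the media differ too (RPMI1640 in HepG2, DMEM in Huh7), and the lines were not compared by a test. Line, time and medium cannot be told apart here.

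The remaining arrestins and the Mondo factors moved less under MS7126. ARRDC2 stood at 1.02 (SE 0.40) in HepG2 and 0.60 (SE 0.54) in Huh7 in the authors' deposited tables. ARRDC3 stood at -0.17 (SE 0.44) in HepG2 and 0.25 (SE 0.21) in Huh7 in the authors' deposited tables. Neither was called by the authors at an adjusted p under 0.05. MLXIPL was at -0.65 (SE 0.19) in HepG2, from 52.8 to 37.5 CPM, and at -0.07 (SE 0.28) in Huh7 by the authors' deposited tables. On the CPM scale the HepG2 value was -0.49. MLX stood at 0.32 (SE 0.22) and 0.18 (SE 0.16) in the authors' deposited tables of HepG2 and Huh7. MLXIP was at 0.33 (SE 0.29) in HepG2 and 1.24 in Huh7 in the authors' deposited tables, but its Huh7 SE of 1.22 was 2.99 log2 units over the trend. Of the 7 genes, the authors' deposited table called 2 higher and 1 lower in HepG2 (of all genes tested 15.5% were called, 7.44% higher and 8.06% lower) and 2 higher in Huh7 (33.9% called, 17.5% higher), counts from which nothing is read here.

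**Figure D3:**
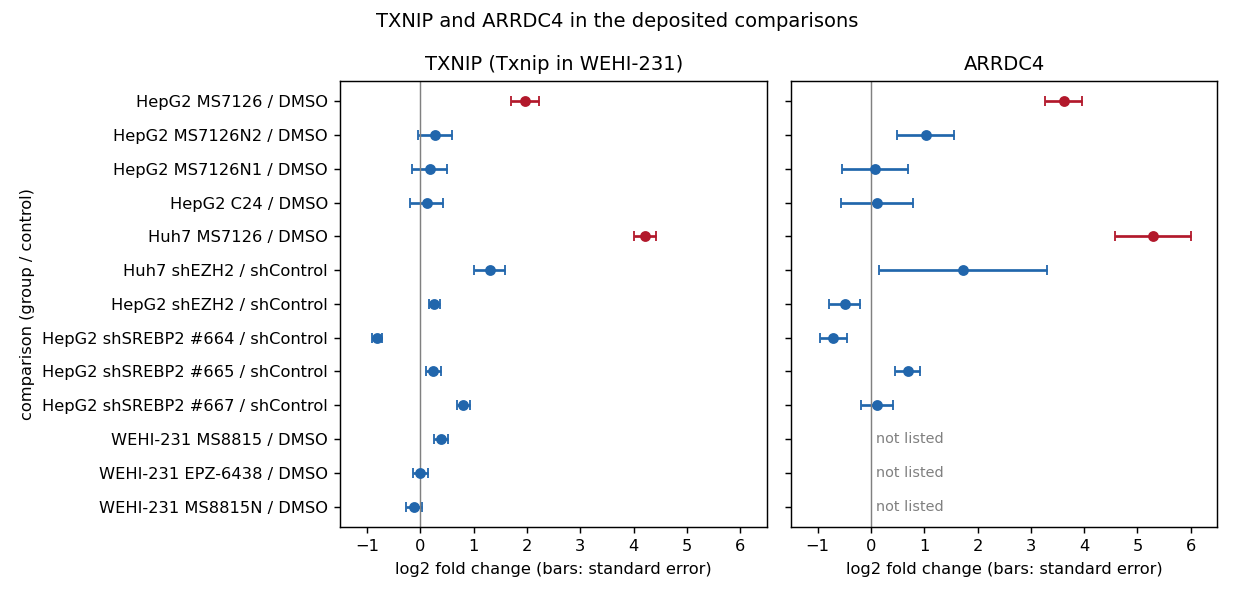
Deposited log2 fold change of TXNIP (Txnip in WEHI-231) in each of the 13 comparisons and of ARRDC4 in the 10 human ones, with bars of 1 standard error on each side; red points are the MS7126 comparisons, which chose these genes and were not tested. TXNIP reaches 1.96 and 4.21 and ARRDC4 3.61 and 5.29 with MS7126, while in the other comparisons TXNIP lies between -0.81 and 1.30 and ARRDC4 between -0.70 and 1.72.

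MS7126 was set beside C24 and the analogs in HepG2 at the same dose and time. The difference of TXNIP log2 fold changes was 1.85 (95% interval 1.05 to 2.64) from C24, 1.79 (0.96 to 2.61) from MS7126N1 and 1.69 (0.87 to 2.51) from MS7126N2. For ARRDC4 the differences were 3.49 (1.99 to 4.99), 3.54 (2.13 to 4.94) and 2.58 (1.33 to 3.84). These intervals describe a contrast that the choice of genes had used, and carry no p. Described in the same way, the MLXIPL difference was -0.69 (-1.17 to -0.20) from C24, -0.46 (-0.997 to 0.076) from MS7126N1 and -0.27 (-0.90 to 0.36) from MS7126N2.

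With C24, MS7126N1 and MS7126N2 themselves, none of the 7 genes was called against DMSO. The background share of called genes in the authors' deposited tables was 7.02% for C24, where only 4 of the 7 genes had an adjusted p, 0.159% for MS7126N1 and 0.703% for MS7126N2. TXNIP stood at 0.11 (SE 0.31) with C24, 0.17 (SE 0.33) with MS7126N1 and 0.27 (SE 0.32) with MS7126N2 in the authors' deposited tables. ARRDC4 stood at 0.12 (SE 0.68), 0.08 (SE 0.63) and 1.03 (SE 0.53) in the same order by the authors' deposited tables. The MS7126N2 value of ARRDC4, from 2.03 to 4.46 CPM, was the highest of these and did not pass (adjusted p = 0.9997 in the authors' deposited table; 95% interval -0.02 to 2.07). Differences among these 3 compounds were tested in 3 pairs with p-values adjusted over all genes, and none of the 7 genes passed in a pair (0.0776% of genes did for MS7126N2 against MS7126N1, 0.333% for MS7126N2 against C24 and 0.111% for MS7126N1 against C24). For ARRDC4 the difference of MS7126N2 from MS7126N1 was 0.95 with an interval of -0.66 to 2.56 (adjusted p = 0.9999), which leaves room for a sizeable difference in either direction. For TXNIP it was 0.09 (-0.80 to 0.99). The intervals do not show that the compounds act alike.

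**Figure D4:**
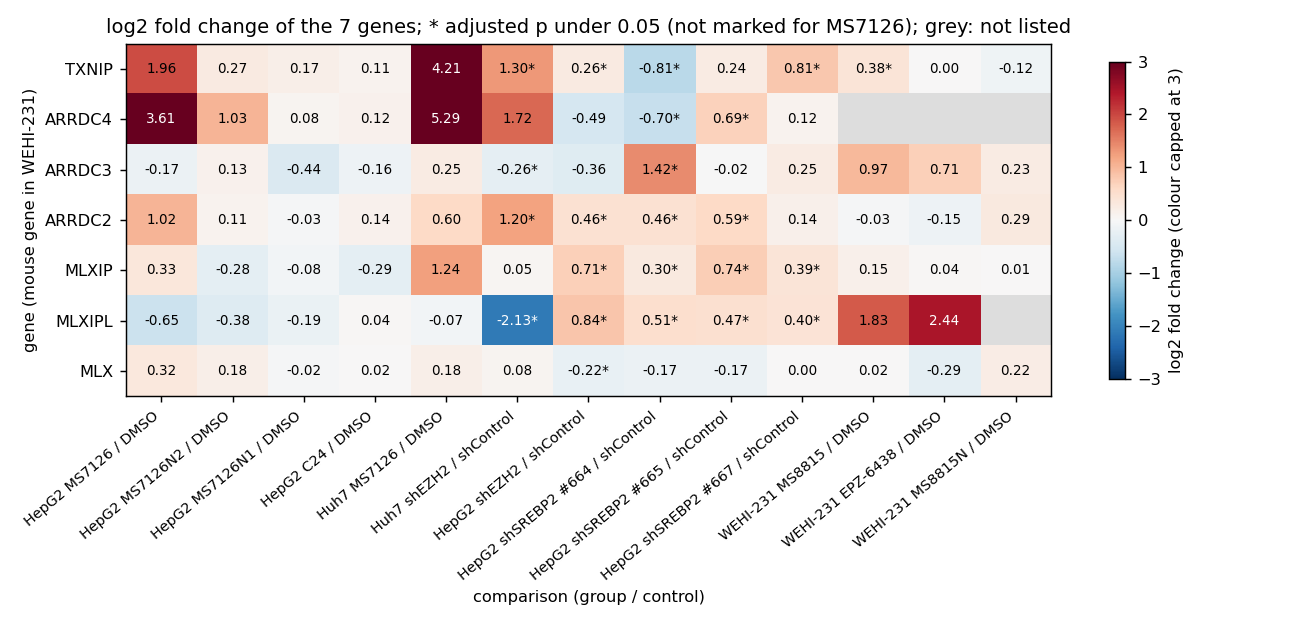
Log2 fold change of the 7 genes (rows) in the 13 comparisons (columns), from edgeR for Huh7 shEZH2 (ARRDC4 there from the deposited table) and from the deposited tables otherwise; stars mark an adjusted p under 0.05 and are left off for MS7126. No star stands under C24, MS7126N1, MS7126N2, EPZ-6438 or MS8815N, and MLXIPL falls by 2.13 with shEZH2 in Huh7 while it is at 0.40 to 0.84 with the HepG2 hairpins.

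In Huh7 with shEZH2, TXNIP rose and MLXIPL fell. TXNIP had 47 and 38 estimated counts in the control libraries and 107 and 123 with shEZH2. In TMM-scaled CPM, with library totals adjusted by edgeR, the level was 3.99 ± 0.280 in the control and 9.83 ± 0.564 with shEZH2 (SD, n = 2 each). TXNIP was thus 2.46-fold higher (1.30 on the log2 scale, SE 0.17, edgeR adjusted p = 2.1e-05). MLXIPL had 78 and 66 estimated counts in the control libraries and 24 and 12 with shEZH2. Its level went from 6.77 ± 0.257 to 1.56 ± 0.791 TMM-scaled CPM (SD, n = 2 each), to 22.9% of control (-2.13, SE 0.29, edgeR adjusted p = 2.51e-05). Without shEZH2 replicate 1 its log2 fold change was -2.75, and without replicate 2 it was -1.68. Both genes were called under each alternative run, DESeq2 and the authors' deposited table included.

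Calls for the other 5 genes in these libraries were absent or depended on the test. ARRDC2 had 9 and 9 estimated counts in the controls and 17 and 29 with shEZH2 (1.20, SE 0.43, edgeR adjusted p = 0.0378). ARRDC3 had 235 and 191 in the controls and 186 and 205 with shEZH2 (-0.26, SE 0.10, edgeR adjusted p = 0.0467). Its counts overlapped, and in TMM-scaled CPM its libraries stood at 20.9 and 19.1, then at 16.4 and 17.1. Both calls were lost with DESeq2 (adjusted p = 0.289 for ARRDC2 and 0.298 for ARRDC3) and in 3 of the 4 fits that left out a single library. For ARRDC2 the edgeR adjusted p was 0.402 without shEZH2 replicate 2, 0.183 and 0.126 without control replicates 1 and 2, and 0.0428, still called, without shEZH2 replicate 1. For ARRDC3 the edgeR adjusted p was 0.262 without control replicate 1, 0.168 and 0.0906 without shEZH2 replicates 1 and 2, and 0.0397, still called, without control replicate 2. ARRDC4 had 4 and 1 estimated counts in the controls and 4 and 14 with shEZH2, too few for the filter, and was not tested. Its increase rests on 1 library. MLXIP (687 and 575, then 725 and 715) and MLX (507 and 478, then 578 and 564 estimated counts) stood at 0.05 (SE 0.06, edgeR adjusted p = 0.517) and 0.08 (SE 0.07, edgeR adjusted p = 0.401). In all, 2 of the 6 tested genes were called higher and 2 lower by edgeR, where 38.7% of all genes were called (19.5% higher, 19.3% lower).

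**Figure D5:**
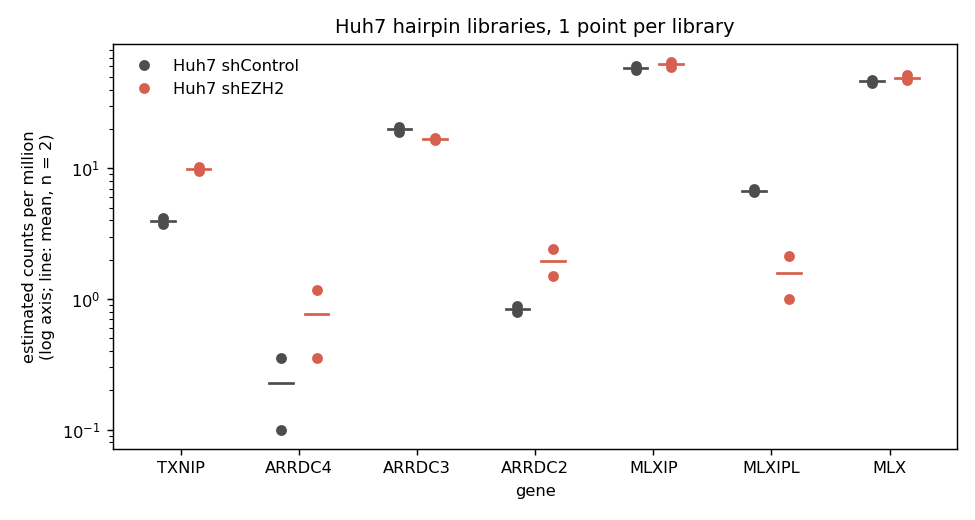
Estimated counts on the CPM scale of the 7 genes in the Huh7 hairpin libraries, on a log axis with 1 point per library and a line at the mean of the 2 libraries of each group. With shEZH2 the mean is higher for TXNIP and ARRDC2 and lower for ARRDC3 and MLXIPL, whereas 1 shEZH2 library of ARRDC4 sits beside the higher control library.

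The HepG2 hairpin groups were read against their shared control. On the authors' scale many genes were called in each, and the total of normalized counts differed between hairpin and control, so that on the CPM scale the median gene moved by -0.34 (libraries labelled shEZH2), -0.24 (#664), -0.19 (#665) and -0.21 (#667) on the log2 scale. A value on the CPM scale is given where it ends a call or turns a direction.

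TXNIP differed between the 3 hairpins against SREBP2. It fell with #664, from 33.9 to 16.3 CPM, with -0.81 on the log2 scale (SE 0.10, adjusted p = 1.56e-16 in the authors' deposited table). It stood at 0.24 (SE 0.15, adjusted p = 0.179) with #665 in the authors' deposited table and did not pass. It rose with #667, from 33.8 to 51.1 CPM, by 0.81 (SE 0.13, adjusted p = 2.62e-09 in the authors' deposited table). Hairpins to the same gene thus gave both directions for TXNIP. The summed hepatocyte markers were above control with #664 (47157 CPM) and #667 (41777 CPM) and below it with #665 (25711 CPM), and their part in these differences was not tested. The difference of #664 from #667 was -1.61 (adjusted p = 6.89e-22 by a normal test over all genes), and that of #664 from #665 was -1.05 (adjusted p = 8.6e-08), where 8.95% and 11.6% of all genes differed. Between #665 and #667 it was -0.56 (adjusted p = 0.0579, with 5.75% of all genes different), or 0.00153 with the covariance of the shared control taken into account.

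ARRDC4 also had values on both sides of its control. It was lower with #664 (-0.70, SE 0.25, adjusted p = 0.0116), higher with #665 (0.69, SE 0.23, adjusted p = 0.0107) and at 0.12 (SE 0.30) with #667 in the authors' deposited tables. On the CPM scale the #665 value was 0.49 and no longer called, and the #667 value turned to -0.096. The difference of #664 from #665 was -1.39 (adjusted p = 0.00107). ARRDC3 rose with #664 alone among the hairpins, from 6.51 to 14.6 CPM (1.42, SE 0.14, adjusted p = 3.83e-23 in the authors' deposited table). It stood at -0.02 (SE 0.23) with #665 and 0.25 (SE 0.22) with #667 by the authors' deposited tables, and #664 differed from both, by 1.44 (adjusted p = 5.67e-06) and 1.17 (adjusted p = 0.000291). ARRDC2 was at 0.46 (SE 0.16) with #664, 0.59 (SE 0.20) with #665 and 0.14 (SE 0.21) with #667 in the authors' deposited tables, the first 2 called on the authors' scale and neither on the CPM scale.

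The glucose-sensing factors were higher with all 3 hairpins on the authors' scale. MLXIPL stood at 0.51 (SE 0.04), 0.47 (SE 0.11) and 0.40 (SE 0.12) for #664, #665 and #667 in the authors' deposited tables, from 135 to between 155 and 163 CPM. MLXIP stood at 0.30 (SE 0.06), 0.74 (SE 0.12) and 0.39 (SE 0.13) in the same order in the authors' deposited tables. All 6 values passed on the authors' scale. In CPM, MLXIPL with #667 (0.19) and MLXIP with #664 (0.048) and #667 (0.18) no longer did. MLX was at -0.17 (SE 0.07), -0.17 (SE 0.12) and 0.00 (SE 0.12) in the authors' deposited tables and passed with none. Of the 7 genes, 4 were called higher and 2 lower with #664 (51.7% of all genes were called, 24.9% higher and 26.8% lower), 4 higher with #665 (38.8% called, 18.7% higher) and 3 higher with #667 (37.8% called, 18.6% higher).

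Among HepG2 libraries labelled shEZH2, where EZH2 was not lower than control, 4 of the 7 genes were called higher and 1 lower (57% of all genes were called, 28.4% higher and 28.6% lower). MLXIPL stood at 0.84 (SE 0.05, adjusted p = 1.11e-61), from 135 to 191 CPM, and MLXIP at 0.71 (SE 0.07) in the authors' deposited table. TXNIP stood at 0.26 (SE 0.10, adjusted p = 0.0152) in the authors' deposited table and turned to -0.085 on the CPM scale. ARRDC2 (0.46, SE 0.19) lost its call on the CPM scale at 0.12, and MLX (-0.22, SE 0.10, adjusted p = 0.0481 in the authors' deposited table) lost it when centred on the median of well-covered genes, at -0.12. ARRDC4 (-0.49, SE 0.30) and ARRDC3 (-0.36, SE 0.24) did not pass in the authors' deposited table, but did on the CPM scale at -0.84 and -0.71. Against these libraries, Huh7 shEZH2 differed in 3 of the 7 genes, where 51.5% of all genes did. The difference of Huh7 from HepG2 was 1.04 for TXNIP (adjusted p = 0.00229), -0.66 for MLXIP (adjusted p = 1.86e-07) and -2.97 for MLXIPL (adjusted p = 5.27e-11), by a normal test of the deposited values over all genes.

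In WEHI-231, Txnip was the only gene of the set to pass, and with MS8815 alone. It went from 35.1 to 47.7 CPM, 0.38 on the log2 scale (SE 0.13, adjusted p = 0.0246) in the authors' deposited table, 1 of 5 genes of the set with an adjusted p (17.1% of all genes were called, 5.34% higher). With EPZ-6438 it stood at 0.00 (SE 0.15) and with MS8815N at -0.12 (SE 0.14) in the authors' deposited tables, where 0.243% and 0.119% of all genes were called. The difference of MS8815 from EPZ-6438 was 0.38 (95% interval -0.01 to 0.77, adjusted p = 0.567 over all genes) and that from MS8815N 0.51 (0.13 to 0.89, adjusted p = 0.226). With the covariance of the shared DMSO libraries the latter had an adjusted p of 0.00997. All 3 pairs of compounds were compared, and 3.09% of all genes differed between MS8815 and EPZ-6438, 1.98% between MS8815 and MS8815N and 0.0255% between EPZ-6438 and MS8815N. On the main test, which leans towards no difference where controls are shared, Txnip did not pass as different between MS8815 and either comparator.

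The other mouse genes did not pass. Arrdc3 stood at 0.97 (SE 0.41, adjusted p = 0.0919) with MS8815, from 2.48 to 5.05 CPM, and at 0.71 (SE 0.53) with EPZ-6438 in the authors' deposited tables. Mlxip was at 0.15 (SE 0.11), Mlx at 0.02 (SE 0.17) and Arrdc2 at -0.03 (SE 0.35) with MS8815 in the authors' deposited table. Mlxipl stood at 1.83 (SE 1.57), from 0.0903 to 0.334 CPM, too low for an adjusted p in the authors' deposited table.

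Across the 10 human comparisons the fold changes of TXNIP and ARRDC4 had a Pearson correlation of 0.946. The points share controls and are dominated by the MS7126 values that chose the genes, so this is a description with no test. By the same measure over 7771 genes, the 5 genes most like TXNIP were AHR (0.957), PHLPP2 (0.953), BMP4 (0.953), CIRBP (0.952) and FAM200A (0.951). Those most like ARRDC4 were SCRN1 (0.976), CIRBP (0.973), FBXO28 (0.972), CCDC137 (0.971) and PIGG (0.963). CIRBP, a cold-inducible RNA-binding protein, was in both lists. It stood at 0.62 (SE 0.19) in HepG2 and 1.14 (SE 0.13) in Huh7 with MS7126 in the authors' deposited tables, far less than TXNIP or ARRDC4.

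Other genes known as targets of the Mondo factors were counted beside the background. Of 24 listed targets outside the 7 genes, 2 were higher and 5 lower of 17 with an adjusted p under MS7126 in HepG2 by the authors' deposited table, with a median log2 fold change of -0.18 over the listed genes, where 15.5% of all genes were called. In Huh7 with MS7126 3 were higher and 11 lower of 18, with a median of -0.62 in the authors' deposited table, where 33.9% of all genes were called. Whether lower calls outnumber higher ones was not tested. KLF10, a transcription factor induced by glucose, was higher in both (2.10, SE 0.27, and 2.12, SE 0.14, in the authors' deposited tables), and BHLHE40, a transcriptional repressor, was higher in Huh7 (1.90, SE 0.16). PNPLA3, a lipid-droplet protein (-2.54, SE 0.35), and SCD, which desaturates fatty acids (-1.82, SE 0.12), were lower in HepG2, and KHK, which phosphorylates fructose, in Huh7 (-1.66, SE 0.31) by the authors' deposited tables. The median of all genes was close to 0 in both comparisons.

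The same list was counted in the other comparisons. In Huh7 shEZH2, where MLXIPL fell, 2 rose and 8 fell of 16 by edgeR (38.7% of all genes were called) with a median of -0.32, with SLC2A2, the liver glucose transporter, at -1.48 (SE 0.14), the fatty acid elongase ELOVL6 at -0.72 (SE 0.05) and SCD at -0.64 (SE 0.02). With the HepG2 hairpins, where MLXIPL was higher on the authors' scale, 2 were higher and 11 lower of 19 for the libraries labelled shEZH2 (57% of all genes were called), 4 and 9 of 19 for #664 (51.7%), 0 and 11 of 19 for #665 (38.8%) and 3 and 7 of 18 for #667 (37.8%) in the authors' deposited tables. The medians were -0.42, -0.22, -0.49 and -0.28. On the CPM scale, on which the median gene is lower, the counts were 2 and 14, 2 and 11, 0 and 14 and 3 and 9. C24 had 5 higher and 0 lower of 12 with an adjusted p in the authors' deposited table (7.02% of all genes were called), and 8 higher on the CPM scale. MS8815 had 0 higher and 5 lower of 9 in the authors' deposited table (17.1%), although the median over the 16 listed genes was 0.056. The mouse genes with the largest changes were the citrate lyase Acly (-0.76, SE 0.05), the fatty acid synthase Fasn (-0.73, SE 0.06) and the transketolase Tkt (-0.54, SE 0.08) in the authors' deposited table. Several of these targets, SCD and FASN among them, are also known targets of SREBP factors.

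With MS7126, the partners of TXNIP and the glucose uptake genes were called in both directions on the authors' scale, with lower calls the more frequent in Huh7. Of 16 thioredoxin and peroxiredoxin genes, 2 were higher and 2 lower with MS7126 in HepG2 (15.5% of all genes were called, list median -0.025) and 2 higher and 10 lower in Huh7 (33.9%, median -0.33) by the authors' deposited tables. On the CPM scale 1 was lower in HepG2 and 4 were higher in Huh7. TXNRD1, which reduces thioredoxin, stood at 1.63 (SE 0.18) in HepG2, PRDX1, a peroxidase that uses thioredoxin, at -0.68 (SE 0.13) in HepG2 and -1.06 (SE 0.12) in Huh7, and GLRX, a glutaredoxin, at -3.79 (SE 0.37) in Huh7 in the authors' deposited tables. In Huh7 shEZH2, 3 rose and 5 fell by edgeR (38.7% of all genes were called), against 2 and 3 in the authors' deposited table. In WEHI-231 with MS8815 2 were higher and 1 lower in the authors' deposited table (17.1% of all genes were called), with Txnrd1 at 0.59 (SE 0.11). Of 16 glucose uptake and phosphorylation genes, 2 were higher and 1 lower of 12 in HepG2 and 1 higher and 4 lower of 12 in Huh7 with MS7126 in the authors' deposited tables, with medians of -0.023 and -0.30. The HepG2 lower call was lost on the CPM scale. SLC2A1, the gene of the glucose transporter GLUT1, stood at 1.29 (SE 0.25) in HepG2 by the authors' deposited table, in the same libraries in which TXNIP was higher. In Huh7 shEZH2, SLC2A1 rose by 0.75 (SE 0.07, edgeR adjusted p = 8.48e-07), and 4 of 11 tested genes of the list rose and 3 fell, against 3 and 2 in the authors' deposited table. In WEHI-231 with MS8815 0 of 8 such genes were called in the authors' deposited table.

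Relatives of the 7 genes and the ligases that arrestins recruit were counted in the same way, where 15.5% of all genes were called with MS7126 in HepG2 and 33.9% in Huh7. Of 3 other arrestins listed, 0 were called with MS7126 in HepG2 and 1 was lower in Huh7 (ARRB2, a beta-arrestin, -0.72, SE 0.17) in the authors' deposited tables, and ARRB1 was called higher in Huh7 shEZH2 by edgeR (0.20, SE 0.07, edgeR adjusted p = 0.0447) and not in the authors' deposited table (adjusted p = 0.255). Of the NEDD4 family ligases, 0 of 7 were called in HepG2, and 3 were higher and 1 lower of 9 in Huh7 with MS7126 in the authors' deposited tables, with NEDD4 at 1.81 (SE 0.25) and ITCH at 1.44 (SE 0.29). In Huh7 shEZH2 3 of 9 rose and 0 fell by edgeR (2 and 0 in the authors' deposited table), with NEDD4L at 0.35 (SE 0.04). Of all genes, 38.7% were called there by edgeR, 19.5% higher. In the MYC and MAX network, to which MLX also belongs, 2 of 8 were lower with MS7126 in HepG2 by the authors' deposited table, both of them MXD repressors, MXD3 (-0.95, SE 0.26) and MXD4 (-0.60, SE 0.16), although the median of the 9 listed genes was 0.65. On the CPM scale 2 genes of this list were called higher. In Huh7 with MS7126 2 were higher and 3 lower of 10, with MYC (1.32, SE 0.12) and MYCN (-1.52, SE 0.18) among them in the authors' deposited table. In Huh7 shEZH2 3 of 10 rose and 0 fell by edgeR (38.7% of all genes were called, 19.5% higher), with MXD4 at 0.45 (SE 0.04).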

How the data were processed

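RNA levels were measured by sequencing in 36 libraries, 2 in each of 18 groups taken from the labels. STAR 2.4.2, Salmon and the genome builds GRCh38 and mm10 are named per the submitters' processing notes. No strand setting is given in the sources used here, so reads from overlapping antisense genes may be included. Per the file headers, the 13 tables the authors deposited hold for each gene its mean as a normalized signal, the log2 fold change and standard error (SE), the test statistic as a score, and p-values, raw and adjusted. For Huh7 shEZH2 the authors also deposited estimated counts per library. Of its rows, 20 with dates in place of symbols were left out.

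The edgeR 4.0.16 quasi-likelihood test (TMM scaling, R 4.3.3) was run on the rounded estimated counts, with DESeq2 1.42.0 as an alternative. The SE beside edgeR values is the size of the fold change over the root of the test's F statistic. When tested on simulated data for the Huh7 shEZH2 comparison (14581 genes), it called 84 of 100 genes set to 2-fold and 93 of 100 set to 4-fold, and 24 of its 201 calls were false. That share of false calls was above the threshold of 0.05. In the real data the common coefficient of variation between libraries of a group, beyond counting noise, was 0.0187. The other 12 comparisons are the authors' deposited values, called at an adjusted p under 0.05, and an adjusted p given as NA was kept as NA. Group levels were rebuilt from each mean and fold change and divided by their sum over genes to give CPM, with no spread. To compare comparisons, the gap between their log2 fold changes was divided by the root of the summed squared SEs (normal p, Benjamini-Hochberg over all genes), which ignores the covariance of shared controls. Where controls are shared, this makes the test conservative. On 18048 genes simulated for MS7126N2 minus MS7126N1, with 200 changed by 2 log2 units, this step recovered 87 with 2 false calls of 89. Both fold changes were drawn independently with the SEs that the step assumes. The simulation thus checks neither those SEs nor the effect of shared controls.

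The 7 genes and the 8 gene lists (Mondo and ChREBP targets, thioredoxin system, glucose uptake, MYC and MAX network, NEDD4 family, other arrestins, insulin and FOXO, glucocorticoid) were chosen with earlier results of these data known. Named list genes are up to 3 called members with the largest change whose mean reached 100, in HepG2 MS7126, Huh7 MS7126, Huh7 shEZH2 and WEHI-231 MS8815, not all of them printed. Alternatives were other normalizations, filters, thresholds and scales, a replicate block, left-out libraries and a covariance for shared controls.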

Additional observations from a re-analysis of the deposited data

Results flagged for a closer look

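The following results differed between groups by a test of the difference itself, adjusted over all genes. Between the hairpins to SREBP2 in HepG2, against the shared control, the log2 fold change of #664 minus that of #665 was -1.0533 for TXNIP, -1.391 for ARRDC4, 1.4364 for ARRDC3 and -0.4446 for MLXIP (adjusted p = 0.0178). That of #664 minus #667 was -1.6143 for TXNIP and 1.1664 for ARRDC3. Across all genes, 11.6% differed in the first pair and 8.95% in the latter. TXNIP was thus below control with #664 and above it with #667, and SREBF2 was lower than control with both. The SREBF2 SE was 1.91 log2 units over the trend in #667 and 2.64 in the HepG2 libraries labelled shEZH2, and whether libraries were exchanged between these labels was not tested.

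Between Huh7 shEZH2 and the HepG2 libraries labelled shEZH2, a pair added after seeing the data, the difference was 1.0367 for TXNIP, -0.6575 for MLXIP and -2.9723 for MLXIPL, where 51.5% of all genes differed. EZH2 was at 15.9% of control in the Huh7 libraries and above control in the HepG2 ones, and the part of this in the differences was not tested.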

How the results depend on the processing

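Only Huh7 shEZH2 could be refitted. TXNIP and MLXIPL kept their direction and call there in each alternative run. With DESeq2, 1703 genes were higher and 1721 lower, and 1702 and 1721 in the authors' deposited table. ARRDC3 lost its call with no low-count filter (-0.26), a mean of at least 10 (-0.26), DESeq2 (-0.26), the deposited values (-0.26) and a threshold of 0.01 (-0.26), and in 3 of 4 fits without a single library (range over all 4 of -0.33 to -0.19, called only at -0.33). ARRDC2 lost it with no filter (1.20), DESeq2 (1.20), the deposited values (1.20) and 0.01 (1.20), and in 3 of 4 fits without a single library (range over all 4 of 0.81 to 1.49, called only at 1.49). MLXIP, not called, ranged from -0.00044 to 0.10 without single libraries. Deviations of same-numbered libraries had a correlation of -0.0339. From 2 libraries per group this cannot decide whether they share a culture or batch, and the labels do not say. With a replicate block ARRDC3 stood at -0.26 and lost its call, and the other 5 tested genes kept theirs or their lack of one (TXNIP 1.29, MLXIPL -2.13).

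At a threshold of 0.01, 33 higher and 28 lower genes were left for MS7126N2, 7 higher for MS7126N1, 111 and 161 for C24 and 353 higher for MS8815. Calls lost there were TXNIP (0.26), ARRDC2 (0.46) and MLX (-0.22) in the HepG2 libraries labelled shEZH2, ARRDC4 with #664 (-0.70) and #665 (0.69), ARRDC2 with #665 (0.59) and Txnip with MS8815 (0.38). The CPM scale, added after seeing the data, left 32 lower genes for MS7126N2, 1162 higher and 113 lower for C24, 3065 and 7485 for the libraries labelled shEZH2, 2686 and 7299 for #664, 5516 lower for #665, 1957 and 5330 for #667 and 778 lower for MS8815. Directions turned on it for ARRDC2 (0.093), MLXIP (0.040) and MLX (0.096) with MS7126N1, MLXIPL with MS7126 in Huh7 (0.0030), TXNIP in the libraries labelled shEZH2 (-0.085), ARRDC4 (-0.096), ARRDC2 (-0.069) and MLX (-0.21) with #667 and Arrdc2 with MS8815 (0.031). Calls were lost on it for ARRDC2 in the libraries labelled shEZH2 (0.12), with #664 (0.21) and #665 (0.39), MLXIP with #664 (0.048) and #667 (0.18), MLXIPL with #667 (0.19) and ARRDC4 with #665 (0.49). Calls were gained for ARRDC4 (-0.84) and ARRDC3 (-0.71) in the libraries labelled shEZH2 and MLX with #664 (-0.41) and #665 (-0.36). MLX with #664 (-0.17) also passed when adjusted over genes whose mean reached 10. Centring on the median of genes whose mean reached 100 turned ARRDC3 with #665 (0.053) and Arrdc2 with MS8815 (0.020) and ended the call of MLX in the libraries labelled shEZH2 (-0.12).

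With a covariance for the shared controls, 69 genes differed between MS7126N2 and MS7126N1, 156 between MS7126N2 and C24, 296 between MS7126N1 and C24, 1222, 919 and 11 among the WEHI-231 pairs, 2993 between #664 and #665 and 2534 between #665 and #667. Differences that passed only then were Txnip of MS8815 minus MS8815N (0.51), TXNIP (-0.56) and MLXIP (0.35) of #665 minus #667, and, with edgeR values, MLX of Huh7 minus HepG2 shEZH2 (0.30). The cause of these shifts was not tested. Over the 7 genes, 395 of the values recomputed in a comparison kept direction and side, 32 lost and 6 gained a call and 12 turned. With 2 libraries per group and no values per library in 12 tables, leaving out a library was not possible there.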

Other observations

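TXNIP is also known to answer to insulin, FOXO factors and glucocorticoids, and genes of those programs were counted beside it. Of 13 insulin and FOXO responsive genes, 2 were higher and 0 lower of 11 with MS7126 in HepG2 in the authors' deposited table (15.5% of all genes were called, list median 0.0082). They were IGFBP1, a secreted protein that binds insulin-like growth factors and that insulin represses, at 4.59 (SE 0.20), and TRIB1, a pseudokinase, at 1.23 (SE 0.19). In Huh7 with MS7126, 6 were higher and 3 lower of 12 in the authors' deposited table (33.9%, list median 0.85), with IGFBP1 at 4.28 (SE 0.44), the insulin receptor substrate IRS2 at 2.67 (SE 0.23) and FOXO1 at 1.56 (SE 0.19). In Huh7 shEZH2, 9 rose and 2 fell of 11 by edgeR (38.7% of all genes were called, 19.5% higher), against 6 and 2 in the authors' deposited table, with IRS2 at 1.78 (SE 0.17, edgeR adjusted p = 6.88e-07) and SESN3, a sestrin, at 1.13 (SE 0.06). In WEHI-231 with MS8815, 3 were higher and 0 lower of 8 in the authors' deposited table (17.1%), with Irs2 at 1.22 (SE 0.11), Foxo1 at 0.48 (SE 0.09) and Foxo3 at 0.27 (SE 0.09). With the HepG2 hairpins, 9 were higher and 1 lower of 12 for #664 (51.7% of all genes were called), where TXNIP was lower. For the libraries labelled shEZH2 the counts were 8 and 1 of 12 (57%), for #665 3 and 1 (38.8%) and for #667 8 and 1 (37.8%). The list medians were 0.76 for #664 and 0.94, 0.19 and 0.49 for the others in that order, in the authors' deposited tables. The part of these programs in the TXNIP changes was not tested.

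Glucocorticoid responsive genes were called in both directions. With MS7126 in HepG2, 2 were higher and 2 lower of 7 in the authors' deposited table (15.5% of all genes were called). The clock gene PER1 stood at -3.83 (SE 0.47) and the phosphatase gene DUSP1 at 1.84 (SE 0.30). In Huh7 with MS7126, 4 were higher and 1 lower of 8 (33.9% of all genes were called), among them TSC22D3 (1.81, SE 0.16) and the receptor gene NR3C1 (1.95, SE 0.12) in the authors' deposited table. In Huh7 shEZH2, 2 rose and 3 fell of 7 by edgeR (38.7% of all genes were called), against 0 and 3 in the authors' deposited table, with DUSP1 at -0.61 (SE 0.04) and NR3C1 at -0.32 (SE 0.07). In WEHI-231 with MS8815, Tsc22d3 was higher (0.63, SE 0.16), 1 of 6 such genes, in the authors' deposited table (17.1% of all genes were called). With the HepG2 hairpins, 4 were higher and 2 lower of 7 for the libraries labelled shEZH2 (57% of all genes were called). The counts were 4 and 2 of 7 for #664 (51.7%), 3 and 1 for #665 (38.8%) and 5 and 1 for #667 (37.8%) in the authors' deposited tables.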
